A study of Mus musculus with 10 samples.

Results

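The 6 libraries described here, of 10 in the series, came from mouse bone marrow cells that expressed 1 of 3 mutant forms of ASXL2. They were grouped by the mutant number in the name of each deposited table, which gave mutants 1, 2 and 3 with 2 libraries each, 1 from each of 2 batches. The question was which genes differ in level among the 3 mutants once the batches are taken into account. With all 10 libraries in 1 fit, only 1 of 17810 genes passed the test for any difference, Rab11fip4, which stood lower in mutant 1 than in mutant 2. With the 6 mutant libraries alone 57 genes passed, and in 40 of them mutant 2 had the highest mean, in the same libraries that chose the genes.

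ASXL2 is a chromatin protein of the Additional sex combs family. With its partner BAP1, a deubiquitinase, it removes ubiquitin from histone H2A, a mark that polycomb complexes place at silenced genes. Mutations of ASXL2 recur in acute myeloid leukaemia with the AML1-ETO translocation. The labels number the mutants and give neither the position nor the type of the mutation.

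All groups started from the same source, lineage-negative, Kit-positive bone marrow cells, grown in IMDM with 15% FBS and mouse IL3, IL6 and SCF. Mutant 1, mutant 2, mutant 3, full-length ASXL2 and an empty vector were the 5 groups. In every group the GFP-positive cells were sorted and expanded before RNA was taken, so the vector and the sort are shared by the controls. PolyA RNA was prepared with a TruSeq kit and sequenced. The strain, sex, age and number of the donor animals, the vector promoter and the time in culture were not given in the sources used here. By name, the 2 libraries of each group differ in their sex-linked genes, as given below. They thus came from cells of different sex and not from the same animal. The number of animals or cultures behind each library is nowhere stated, and p-values measure no more than how far these libraries differ.

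The deposited tables hold estimated counts and TPM (a transcript's share of its library after correction for length). Estimated counts were summed per gene and totalled 52422686 to 79320702 per library, with 15624 to 17240 genes at 10 counts or more. The cells carried mast cell and basophil transcripts, whose list of 26 genes summed to between 67380 and 75880 TPM over the 6 mutant libraries. Monocyte genes (19) summed to 39.88 to 57.4 TPM and lymphoid genes (19) to 1.617 to 5.909 TPM in the same libraries. No pair of libraries was a copy, as the log2 CPM (counts relative to library size, TMM-scaled) of any 2 libraries correlated at 0.9751 to 0.991. The first principal component held 41.2% of the variance and separated the 2 batches by name, with all 5 libraries of batch 1 between -50.32 and -24.09 and all 5 of batch 2 between 27.03 and 48.65.

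Names and labels put the mutant libraries in different groups. In 4 of the 6 mutant libraries the label gives another mutant number than the name, and in 2 of the 6 another batch. Genes of the sex chromosomes bear on the batch. Xist, the noncoding RNA that silences 1 X chromosome in female cells, stood between 954 and 1199 CPM in the 5 libraries of batch 1 by name, and between 0.0745 and 0.192 CPM in the 5 of batch 2. The Y-linked genes Ddx3y, Kdm5d, Eif2s3y and Uty reached at most 1.24 CPM in batch 1 and stood between 28.9 and 70.2 CPM in batch 2. The split followed the batch in the name in 10 of 10 libraries and the batch in the label in 8 of 10. It says nothing of the mutant number. Batch and sex cannot be told apart here, and each mutant has 1 library of each kind. By label, both libraries of mutant 1 lie in batch 1 by name and both of mutant 3 in batch 2.

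Asxl2 itself (ENSMUSG00000037486) checks that the constructs were expressed. It stood at 1547 and 929 CPM in mutant 1, at 1892 and 916 CPM in mutant 2 and at 1132 and 790 CPM in mutant 3 (batch 1 first, as for all pairs of values that follow). Full-length libraries had 1384 and 992 CPM and empty vector libraries 107 and 111 CPM. All 6 mutant libraries lay above both empty vector libraries, each mutant was higher in batch 1 than in batch 2, and the 3 mutants overlapped. The log2 difference was -0.15 for mutant 1 over mutant 2 (95% interval -0.73 to 0.43), 0.35 for mutant 1 over mutant 3 (-0.24 to 0.93) and 0.50 for mutant 2 over mutant 3 (-0.09 to 1.08). The adjusted p for any difference was 0.958 (edgeR quasi-likelihood test, Benjamini-Hochberg over all genes). Of the TPM of ENSMUST00000153102 and ENSMUST00000144247, the 2 Asxl2 transcripts that carry most of the level in the construct libraries, the first and longer one held 34.7 and 37% in mutant 1, 35.1 and 37.2% in mutant 2, and 34.6 and 35.6% in mutant 3, against 34.3 and 35.7% with full-length ASXL2. The shares of the 3 mutants overlapped. Asxl1, a paralogue, lay between 91.9 and 98.979 CPM over the mutants (adjusted p = 0.974, edgeR), and Bap1 between 70.5 and 81.8 CPM (adjusted p = 0.98, edgeR).

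The test for any difference among the mutants passed 1 of 17810 genes, 0.00561% (edgeR, adjusted p under 0.05, batch by name as a block), and 916 genes, 5.14%, had an unadjusted p under 0.05. Mutant 1 over mutant 2 gave 1 call, the same 0.00561%, with a lower level in mutant 1, and 1330 genes at an unadjusted p under 0.05. Of these, 553 were higher and 777 lower in mutant 1. Mutant 1 over mutant 3 gave 0 calls (0%) and 721 genes at an unadjusted p under 0.05, where DESeq2 called 21 (0.118%). Mutant 2 over mutant 3 gave 0 calls (0%) and 742 genes at an unadjusted p under 0.05, where DESeq2 called 47 (0.264%). Grouped by label the test for any difference passed 0 genes, with the batch block by label (1684 at an unadjusted p under 0.05), with the block by name (779) and with no block (757).

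Rab11fip4 (ENSMUSG00000017639, GRCm38 chromosome 11, 79591212 to 79698023, plus strand) encodes an effector that links the recycling endosome GTPase RAB11 to its membranes. It had 6.28 and 8.52 CPM in mutant 1, 18.7 and 24.5 CPM in mutant 2 and 10.3 and 10.4 CPM in mutant 3. Full-length libraries had 20.6 and 21.7 CPM, and empty vector libraries 18.7 and 26.9 CPM. The 3 mutants did not overlap. Mutant 2 lay in the range of the full-length and empty vector libraries, and all 4 libraries of mutants 1 and 3 lay below that range. Mutant 1 fell to 0.342 times the level of mutant 2, a log2 fold change of -1.55 (SE 0.13, 95% interval -1.85 to -1.25, adjusted p = 0.0182, edgeR), and the difference was -1.58 within batch 1 and -1.52 within batch 2. Mutant 1 over mutant 3 was -0.51 (SE 0.13, 95% interval -0.81 to -0.20), and mutant 2 over mutant 3 was 1.04 (SE 0.13, 95% interval 0.75 to 1.34). Neither passed, at an adjusted p of 1 and 0.156 (edgeR).

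The call for Rab11fip4 was sensitive to single libraries. Without mutant 1 of batch 1 the adjusted p of mutant 1 over mutant 2 was 0.422, without mutant 1 of batch 2 it was 0.121, and without mutant 2 of batch 2 it was 0.0712 (edgeR). The test for any difference, at an adjusted p of 0.0418 with all libraries, also missed the threshold without mutant 2 of batch 1 (0.0854) and without mutant 3 of batch 2 (0.0805). With no replicate block both adjusted p values were 1. It also depends on the grouping. By label, mutant 1 holds the values 6.28 and 18.7, mutant 2 holds 10.3 and 8.52, and mutant 3 holds 24.5 and 10.4 CPM, so the labelled mutants 1 and 2 overlap and their log2 fold change turned to 0.37 with the block by label.

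Both main transcripts of Rab11fip4 showed the order seen for the gene. The full-span transcript ENSMUST00000017783 had 1.19 and 1.29 TPM in mutant 1, 3.42 and 3.61 TPM in mutant 2 and 1.84 and 1.7 TPM in mutant 3, against 3.48 and 3.91 TPM with full-length ASXL2 and 3.58 and 4.47 TPM with the empty vector. The shorter ENSMUST00000155381, from 79660562 to 79683498, had 0.753 and 1.01 TPM in mutant 1, 2.47 and 2.49 TPM in mutant 2, and 1.38 and 1.36 TPM in mutant 3. For both transcripts the 3 mutants did not overlap, with mutant 1 lowest and mutant 2 highest.

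Other Rab11 effectors and RAB11 itself did not pass with edgeR on all 10 libraries. Rab11fip5, a second effector of the class, had 3.18 and 4.31 CPM in mutant 1, 5.96 and 10.7 CPM in mutant 2 and 4.97 and 6.61 CPM in mutant 3, against 17.1 and 23.1 CPM with full-length ASXL2 and 1.22 and 2.51 CPM with the empty vector (adjusted p = 0.249, edgeR). DESeq2 on the same libraries called it, at an adjusted p of 3.95e-05, and the edgeR fit of the 6 mutant libraries called it in mutant 1 over mutant 2 (adjusted p = 0.0229). Mutant 1 lay below both other mutants, which overlapped. Over the 6 mutant libraries Rab11fip1 ranged from 6.6 to 8 CPM, Rab11fip2 from 13.2 to 16.4, Rab11fip3 from 18.2 to 19.7, Rab11a from 66.3 to 79.6 and Rab11b from 148 to 169. These 5 genes had adjusted p values of 0.958 or more among the mutants (edgeR).

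**Figure D1:**
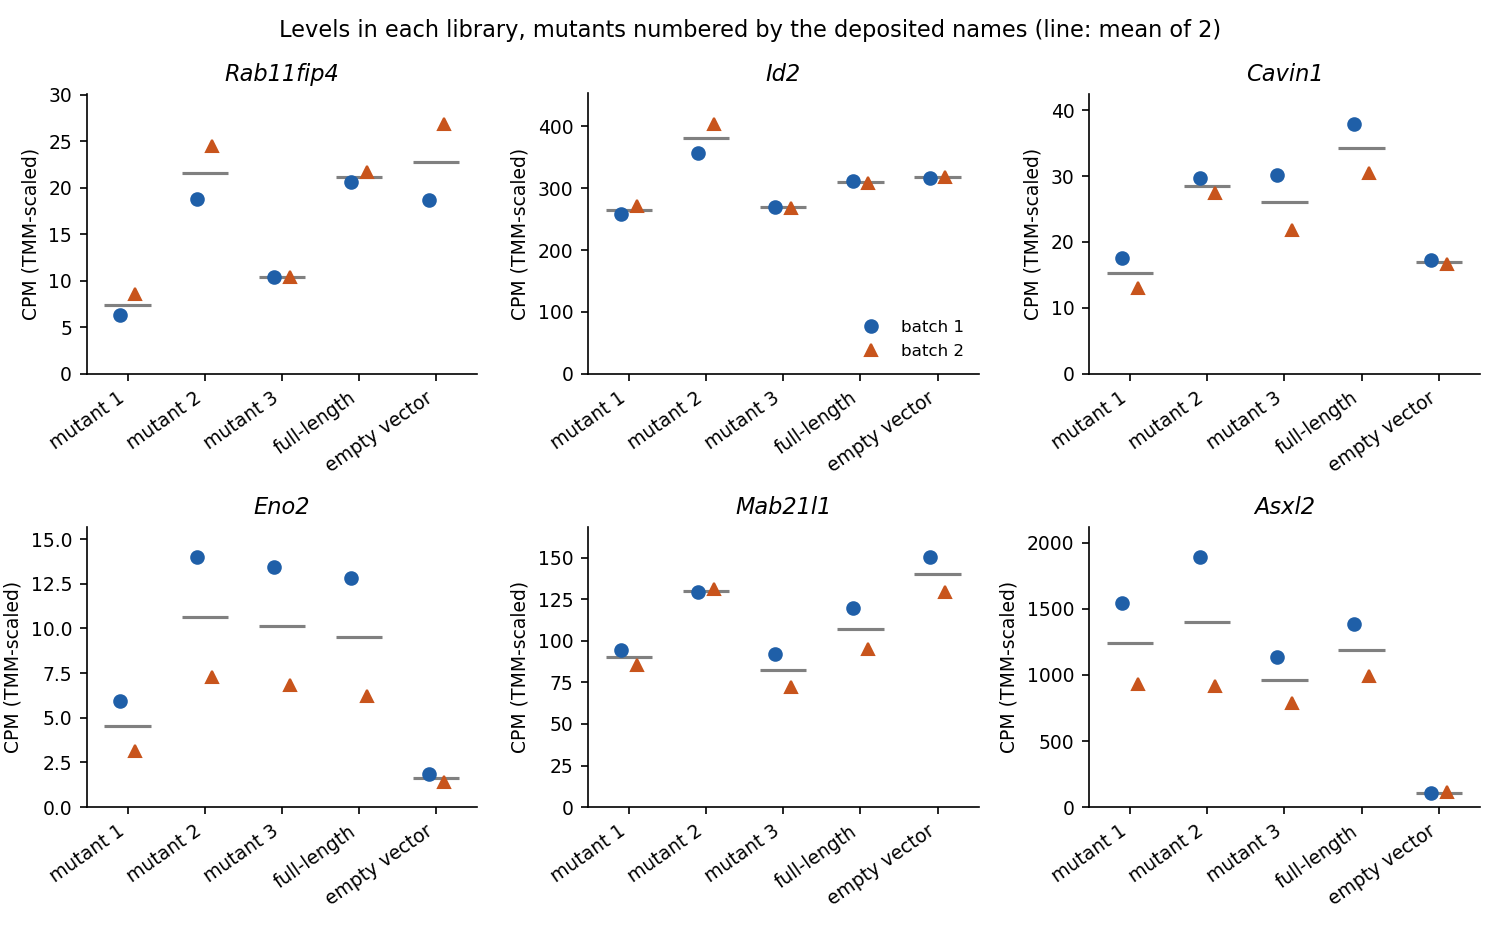
Levels of Rab11fip4, Id2, Cavin1, Eno2, Mab21l1 and Asxl2 in CPM (TMM-scaled, vertical axes from 0) in each of the 10 libraries, with the mutants numbered by the deposited names, circles for batch 1, triangles for batch 2 and a line at the mean of the 2 libraries. For Rab11fip4 both mutant 1 libraries (6.28 and 8.52) lie below both mutant 3 libraries (10.3 and 10.4) and both mutant 2 libraries (18.7 and 24.5).

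The genes with the next smallest p in the test for any difference did not pass with edgeR on all 10 libraries. Of these, Id2, Cavin1, Eno2 and Mab21l1 passed with edgeR on the 6 mutant libraries (adjusted p = 0.0239, 0.0239, 0.0107 and 0.0422). They also passed with DESeq2 on all libraries, at adjusted p values of 3.28e-10 for Id2 to 1.65e-08 for Eno2. Id2, an inhibitor of basic helix-loop-helix transcription factors, had 259 and 271 CPM in mutant 1, 357 and 405 CPM in mutant 2 and 270 and 268 CPM in mutant 3. The full-length libraries had 312 and 308 CPM and the empty vector libraries 316 and 319 CPM. Mutant 2 lay above all other libraries, while mutants 1 and 3 overlapped and lay below the other groups. Its log2 difference was -0.52 (SE 0.06) for mutant 1 over mutant 2 and 0.50 (SE 0.06) for mutant 2 over mutant 3 (adjusted p for any difference 0.164, edgeR).

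Cavin1, which coats caveolae, had 17.6 and 13.04 CPM in mutant 1, 29.8 and 27.4 CPM in mutant 2, and 30.1 and 21.9 CPM in mutant 3. It had 38.0 and 30.5 CPM with full-length ASXL2 and 17.3 and 16.7 CPM with the empty vector. Both mutant 1 libraries lay below both libraries of each other mutant, and their range took in that of the empty vector. The log2 difference was -0.91 (SE 0.11) for mutant 1 over mutant 2 and -0.76 (SE 0.11) for mutant 1 over mutant 3, with an adjusted p for any difference of 0.164 (edgeR).

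Eno2, the neuronal isoform of the glycolytic enzyme enolase, had 5.97 and 3.13 CPM in mutant 1, 14.0 and 7.28 CPM in mutant 2 and 13.4 and 6.84 CPM in mutant 3. It had 12.8 and 6.23 CPM with full-length ASXL2 and 1.86 and 1.42 CPM with the empty vector. In each batch mutant 1 lay between the empty vector and the other 3 construct groups. Its log2 difference to mutant 2 was -1.23 within batch 1 and -1.22 within batch 2, and to mutant 3 it was -1.17 and -1.13 (adjusted p for any difference 0.164, edgeR).

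Mab21l1, a developmental regulator of the MAB21 family, had 94.5 and 85.6 CPM in mutant 1, 129 and 131 CPM in mutant 2 and 91.9 and 72.5 CPM in mutant 3. Full-length libraries had 119.53 and 94.9 CPM and empty vector libraries 150.36 and 129.6 CPM. Mutant 2 lay above both other mutants in both batches, and mutants 1 and 3 overlapped. The log2 difference of mutant 2 over mutant 3 was 0.68 (SE 0.09), at an adjusted p of 0.156 (edgeR). Grik5, a kainate-type glutamate receptor subunit, had 37.6 and 26.0 CPM in mutant 1, 56.6 and 43.8 CPM in mutant 2 and 49.5 and 29.3 CPM in mutant 3, and the ranges of mutants 2 and 3 overlapped (adjusted p for any difference 0.229, edgeR). DESeq2 on all libraries called Grik5 for any difference (adjusted p = 4.14e-06). The edgeR fit of the 6 mutant libraries called it in mutant 1 over mutant 2 (adjusted p = 0.0323).

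Among genes higher in mutant 1 than in mutant 2, Twsg1, Cd300ld3 and Camkk1 had the smallest p of those with at least 5 CPM, and none passed with edgeR on all 10 libraries (adjusted p = 0.131 each), while DESeq2 and the edgeR fit of the 6 mutant libraries called all 3. Twsg1, a secreted binder of bone morphogenetic proteins, had 143.84 and 146.87 CPM in mutant 1, 115 and 118 CPM in mutant 2 and 134 and 144 CPM in mutant 3. Mutant 2 was the low one of the 3, and its libraries did not overlap with those of the other mutants. Camkk1, a kinase that activates calmodulin-dependent kinases, had 22.9 and 21.0 CPM in mutant 1, 14.5 and 15.5 CPM in mutant 2 and 18.2 and 16.8 CPM in mutant 3, which kept the 3 mutants apart. The log2 difference of mutant 1 over mutant 2 was 0.32 for Twsg1, 0.37 for Cd300ld3 and 0.55 for Camkk1.

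Between mutants 1 and 3 the smallest adjusted p was 0.505 (edgeR), reached by Cavin1 and Eno2, both of which DESeq2 called in this contrast, with Cdk18, Sytl2 and Gpr179. Cdk18, a cyclin-dependent kinase of the PCTAIRE group, had 18.7 and 23.4 CPM in mutant 1, 26.3 and 32.8 CPM in mutant 2 and 28.1 and 29.8 CPM in mutant 3. Mutant 1 lay below the other 2 mutants in both batches, with a log2 difference to mutant 3 of -0.47 (SE 0.08). Sytl2, a Rab27 effector in vesicle docking, had 39.7 and 81.9 CPM in mutant 1, 35.01 and 85.8 CPM in mutant 2 and 27.4 and 56.9 CPM in mutant 3. Here the batches differ more than the mutants do, and mutant 3 was the lowest of the 3 in each batch, with 0.53 (SE 0.09) for mutant 1 over mutant 3. Gpr179, an orphan receptor, and Utp20, a component of the small ribosomal subunit processome, had log2 differences of 0.83 (SE 0.15) and 0.34 (SE 0.07) in the same contrast.

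Between mutants 2 and 3 the smallest adjusted p was 0.156 (edgeR), for Rab11fip4, Id2 and Mab21l1. Adcy6, an adenylyl cyclase that makes cyclic AMP, had 21.7 and 19.8 CPM in mutant 1, 20.2 and 19.5 CPM in mutant 2 and 28.1 in each library of mutant 3. It had 19.3 and 14.9 CPM with full-length ASXL2 and 3.24 and 3.31 CPM with the empty vector. Mutant 3 lay above all other libraries, and mutants 1 and 2 overlapped. Bmp1, a protease that processes procollagen, had 7.05 and 3.91 CPM in mutant 1, 4.53 and 3.06 CPM in mutant 2 and 8.28 and 6.70 CPM in mutant 3, where mutant 3 was highest in each batch and the ranges of mutants 1 and 3 overlapped. The log2 difference of mutant 2 over mutant 3 was -0.50 (SE 0.10) for Adcy6, -1.004 (SE 0.20) for Bmp1 and -0.36 (SE 0.07) for the prostacyclin receptor gene Ptgir. None of the 3 passed with edgeR on all 10 libraries, and DESeq2 called Adcy6 and Bmp1 in this contrast.

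The 95% intervals show what sizes of difference these libraries leave possible. The median half-width over all 17810 genes was 0.32 on the log2 scale for mutant 1 over mutant 2. Among the 10175 genes that averaged at least 5 CPM in the mutants, the interval lay within a 2-fold change in either direction for 97.3% (9900 genes) in mutant 1 over mutant 2, 98% (9967) in mutant 1 over mutant 3 and 97.8% (9949) in mutant 2 over mutant 3. Over all genes tested the shares were 69.9%, 70.9% and 71.1%. Missing the threshold does not show that a gene has the same level in the mutants.

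Calls among list members depended on the fit. With edgeR on all 10 libraries, 0 of the 578 genes in the 26 lists, some of which fell under the filter on low counts, passed in any of the 3 pairwise contrasts, where at most 1 of all genes tested did. DESeq2 on the same libraries called 11 of them among its 99 genes in mutant 1 over mutant 2, 3 among its 21 in mutant 1 over mutant 3 and 9 among its 47 in mutant 2 over mutant 3. The edgeR fit of the 6 mutant libraries called 9 of 85, 0 of 0 and 3 of 23 in these contrasts. Over all genes tested, the share called was 0.556%, 0.118% and 0.264% with DESeq2. In the fit of the 6 libraries it was 0.496%, 0% and 0.134%. The different list members that passed the filter were not counted, so whether members were called more often than other genes is not read from these counts. The direction of the members is described here beside all genes tested, whose median log2 difference was 0.003 for mutant 1 over mutant 2, 0.002 for mutant 1 over mutant 3 and -0.002 for mutant 2 over mutant 3. Members of a list vary together, so their number is not a number of independent observations.

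Of the 32 glycolysis and hypoxia genes tested, enzymes and transporters of sugar breakdown with targets of the hypoxia-inducible factor, 31 were below 0 in mutant 1 over mutant 2, with a median of -0.307. The median was -0.032 within batch 1 and -0.499 within batch 2. It was 0.049 without mutant 2 of batch 2, and -0.515 without mutant 2 of batch 1. In mutant 1 over mutant 3, 30 of the 32 were below 0, with a median of -0.161 and within-batch medians of -0.139 and -0.126. In mutant 2 over mutant 3 the within-batch medians were -0.119 in batch 1 and 0.355 in batch 2, with opposite signs. By name, the median of mutant 1 over mutant 3 was thus alike in both batches, whereas the distance to mutant 2 rested on 1 library of batch 2. By label, mutant 1 over mutant 3 had medians of 0.084 with the block by label, -0.577 with the block by name and 0.024 without, so its sign depended on the grouping. The 4 genes of a list that marks ribosomal RNA (Gm42418, Gm26917, Mir6236 and Lars2) also lay below 0 in mutant 1 over mutant 2, with a median of -0.201. Their summed level was 56180 and 94300 TPM in mutant 1, 64780 and 110100 TPM in mutant 2 and 70690 and 83350 TPM in mutant 3, highest in the mutant 2 library of batch 2. Over the mutants Gm42418 had only 31.3 to 83.4 TPM and Gm26917 13.3 to 17.6 TPM. Nearly all of the sum thus came from Mir6236 and Lars2 together. Gm42418 fell from batch 1 to batch 2 in each mutant, while Gm26917 and the sum rose. The part of these 4 genes in the glycolysis difference was not tested.

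Car9, a carbonic anhydrase and target of the hypoxia-inducible factor, was the member with the smallest p. It had 21.9 and 15.5 CPM in mutant 1, 38.8 and 19.3 CPM in mutant 2 and 40.5 and 23.1 CPM in mutant 3, and 33.1 and 15.2 CPM with full-length ASXL2 against 25.8 and 15.6 CPM with the empty vector. Mutant 1 was the lowest of the 3 mutants in each batch, and the ranges overlapped across batches (adjusted p for any difference 0.376 with edgeR on all 10 libraries and 0.000597 with DESeq2). Because Car9 belongs to this list and Eno2 and Cavin1 were lower in mutant 1 in both batches, the 120 bases before the RefSeq start of each gene are shown (GRCm38.p6, on the gene's strand), with the core of the hypoxia response element in capitals. The coordinates are chr4:43506906-43507025 (plus strand) for Car9, chr6:124769674-124769793 (minus) for Eno2 and chr11:100970618-100970737 (minus) for Cavin1. In the annotation used for the counts Car9 starts at 43506966 and Cavin1 at 100970887, so the second part of the Car9 window, with its motif, and the whole Cavin1 window lie inside the gene as drawn there.
Car9: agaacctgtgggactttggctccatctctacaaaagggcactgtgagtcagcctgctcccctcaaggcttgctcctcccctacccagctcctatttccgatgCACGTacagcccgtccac
Eno2: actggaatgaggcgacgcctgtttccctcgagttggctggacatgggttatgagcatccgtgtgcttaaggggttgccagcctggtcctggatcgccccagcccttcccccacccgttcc
Cavin1: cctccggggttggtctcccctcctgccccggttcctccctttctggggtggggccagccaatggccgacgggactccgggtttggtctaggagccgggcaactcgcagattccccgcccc
The motifs searched were ACGTG and GCGTG and, for the other strand, CACGT and CACGC, where ACGTG and CACGT overlap in CACGTG. In the 250 bases before the RefSeq start, Car9 held at least 1 match, and Eno2 and Cavin1 held none. Within the 120 bases shown, Car9 held 1, which began 18 bases before the start. Among 32851 such windows, 38.6% held a match, so a match is common, and a window without these letters says nothing about the factor.

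DNA replication genes stood the other way. In mutant 1 over mutant 2, 31 of 32 were above 0, with a median of 0.155 and within-batch medians of 0.178 and 0.133. For mitosis genes 27 of 28 were above 0, with a median of 0.178 and within-batch medians of 0.273 and 0.11. In mutant 2 over mutant 3, 30 of the 32 replication genes and 27 of the 28 mitosis genes were below 0, with medians of -0.114 and -0.135. The signs were the same in both batches in each of these 4 cases, but the size rested on single libraries. Without mutant 2 of batch 1, the medians of mutant 1 over mutant 2 were 0.078 for replication and 0.065 for mitosis genes, and those of mutant 2 over mutant 3 were -0.044 and -0.006. Without mutant 2 of batch 2 they were 0.291 and 0.339, and -0.223 and -0.287. For replication genes in mutant 1 over mutant 2 the median was 0.081 without mutant 1 of batch 2. For mitosis genes in mutant 2 over mutant 3 it was -0.024 without mutant 3 of batch 2 and -0.229 without mutant 3 of batch 1. Gins2, a subunit of the replicative helicase complex, had 47.0 and 58.1 CPM in mutant 1, 41.7 and 50.2 CPM in mutant 2 and 45.3 and 55.3 CPM in mutant 3. Cenpf, a kinetochore protein of dividing cells, had 54.5 and 61.5 CPM in mutant 1, 40.5 and 55.5 CPM in mutant 2 and 43.2 and 61.1 CPM in mutant 3. In both genes mutant 2 was the lowest of the 3 mutants in each batch, and the ranges overlapped across batches. Grouped by label, the medians of mutant 1 over mutant 2 turned to -0.293 for replication and -0.366 for mitosis genes with the block by label, and to -0.189 and -0.162 with the block by name.

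Ribosome biogenesis genes and MYC targets were above 0 for 30 of 33 in mutant 1 over mutant 2 and for 31 of 33 in mutant 1 over mutant 3, with medians of 0.1 and 0.089. Without mutant 1 of batch 2 these were 0.034 and 0.027, and without mutant 1 of batch 1 they were 0.157 and 0.15. Polr1a, the large subunit of RNA polymerase I, had 65.1 and 73.9 CPM in mutant 1, 57.8 and 58.95 CPM in mutant 2 and 57.3 and 64.3 CPM in mutant 3 (adjusted p for any difference 0.689, edgeR), with mutant 1 above both others. Immediate early and feedback genes of growth factor signalling had a median of 0.357 in mutant 2 over mutant 3, with 26 of 31 above 0. That median was -0.036 within batch 1 and 0.54 within batch 2, and it was -0.089 without mutant 2 of batch 2, 0.556 without mutant 2 of batch 1, 0.229 without mutant 3 of batch 1 and 0.196 without mutant 3 of batch 2. Cytokine and inflammation genes had a median of -0.278 in mutant 1 over mutant 2, at -0.196 within batch 1 and -0.364 within batch 2, and -0.184 without mutant 2 of batch 2. Cholesterol synthesis genes had 21 of 24 above 0 in mutant 2 over mutant 3, with a median of 0.112, which was -0.044 without mutant 2 of batch 2, 0.213 without mutant 2 of batch 1, -0.033 without mutant 3 of batch 1 and 0.292 without mutant 3 of batch 2. For the ASXL and BAP1 complex genes (12 tested) and the polycomb subunits (32 tested) the medians in mutant 1 over mutant 2 were 0.02 and 0.007. In the same contrast the medians were -0.09 for nuclear receptors and their lipid targets (21 tested), 0.023 for ATF4 and unfolded protein response genes (28), -0.011 for interferon response genes (25), 0.03 for p53 targets (27) and 0.034 for integrin, adhesion and actin genes (29).

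**Figure D2:**
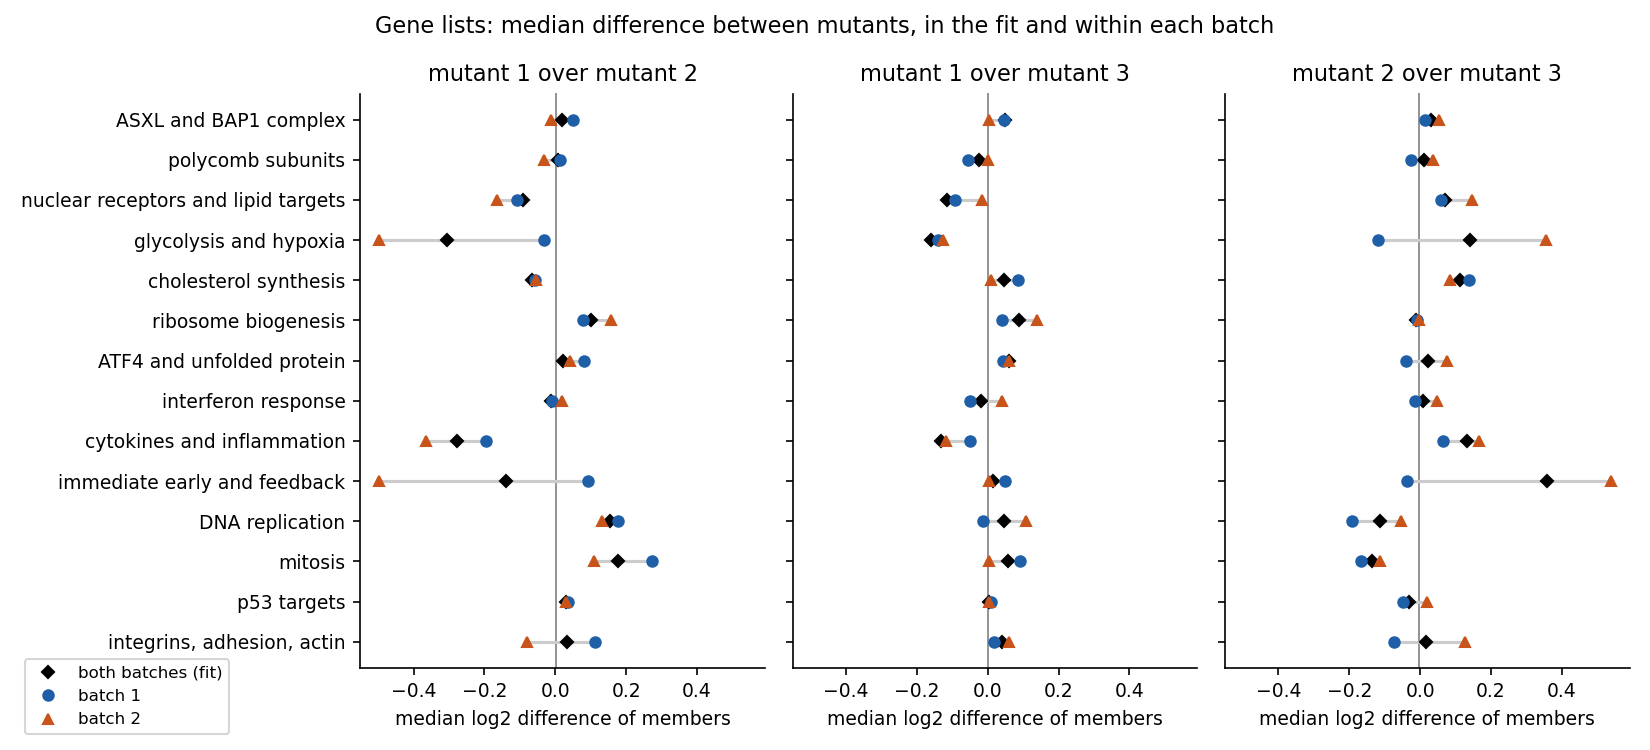
Median log2 difference of the members of 14 pathway lists (rows) in mutant 1 over mutant 2, mutant 1 over mutant 3 and mutant 2 over mutant 3 (horizontal axes, log2), from the fit of both batches (diamonds) and within batch 1 (circles) and batch 2 (triangles), with a vertical line at the median of all genes tested. Glycolysis and hypoxia genes in mutant 1 over mutant 2 lie at -0.032 in batch 1 and -0.499 in batch 2, while replication and mitosis genes lie above 0 in both.

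Among mast cell genes, Mcpt4, a granule chymase, had 6.77 and 19.9 CPM in mutant 1, 9.08 and 51.2 CPM in mutant 2 and 5.06 and 19.7 CPM in mutant 3, against 10.04 and 33.3 CPM with full-length ASXL2 and 13.6 and 50.7 CPM with the empty vector. Mrgprb2, a mast cell receptor for basic peptides and drugs, had 3.46 and 2.31 CPM in mutant 1, 7.72 and 5.51 CPM in mutant 2, and 3.60 and 3.62 CPM in mutant 3. In both genes mutant 2 was the highest mutant in each batch, and neither passed with edgeR on all 10 libraries (adjusted p = 0.356 and 0.755). DESeq2 on the same libraries called both (adjusted p = 2.61e-08 and 0.0358). The mast cell list as a whole had medians of -0.017 in mutant 1 over mutant 2 and 0.04 in mutant 2 over mutant 3. In bulk RNA, fewer cells of a type and less RNA per cell cannot be told apart.

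Agreement between the batches was measured across genes, as a description, since genes are not independent and the 3 pairs of mutants share libraries. Over all 17810 genes the log2 difference of mutant 1 over mutant 2 in batch 1 correlated at 0.124 with that in batch 2 (Spearman 0.215), against 0.0429 for mutant 1 over mutant 3 and 0.00889 for mutant 2 over mutant 3. Over the 10175 genes with at least 5 CPM the values were 0.381, 0.179 and 0.115. In these genes, a difference of at least 2-fold in both batches had the same sign in 16 genes and opposite signs in 2 for mutant 1 over mutant 2. It had the same sign in 2 and opposite signs in 1 for mutant 1 over mutant 3, and the same sign in 7 and opposite signs in 2 for mutant 2 over mutant 3.

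The same can be asked of each library, taken as its deviation from the mean of the 3 mutants of its batch. Libraries with the same number in the name correlated at 0.108 for mutant 1, 0.0744 for mutant 2 and -0.00669 for mutant 3, and pairs with different numbers lay between -0.0985 and 0.026. The only pair with the same label number in different batches by name, the libraries labelled mutant 2, stood at -0.0195. The value for mutant 3 lay within the range of the pairs with different names. Within a batch the 3 deviations sum to 0, so same-number and different-number values depend on each other. The pairs with different numbers are thus no independent reference.

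**Figure D3:**
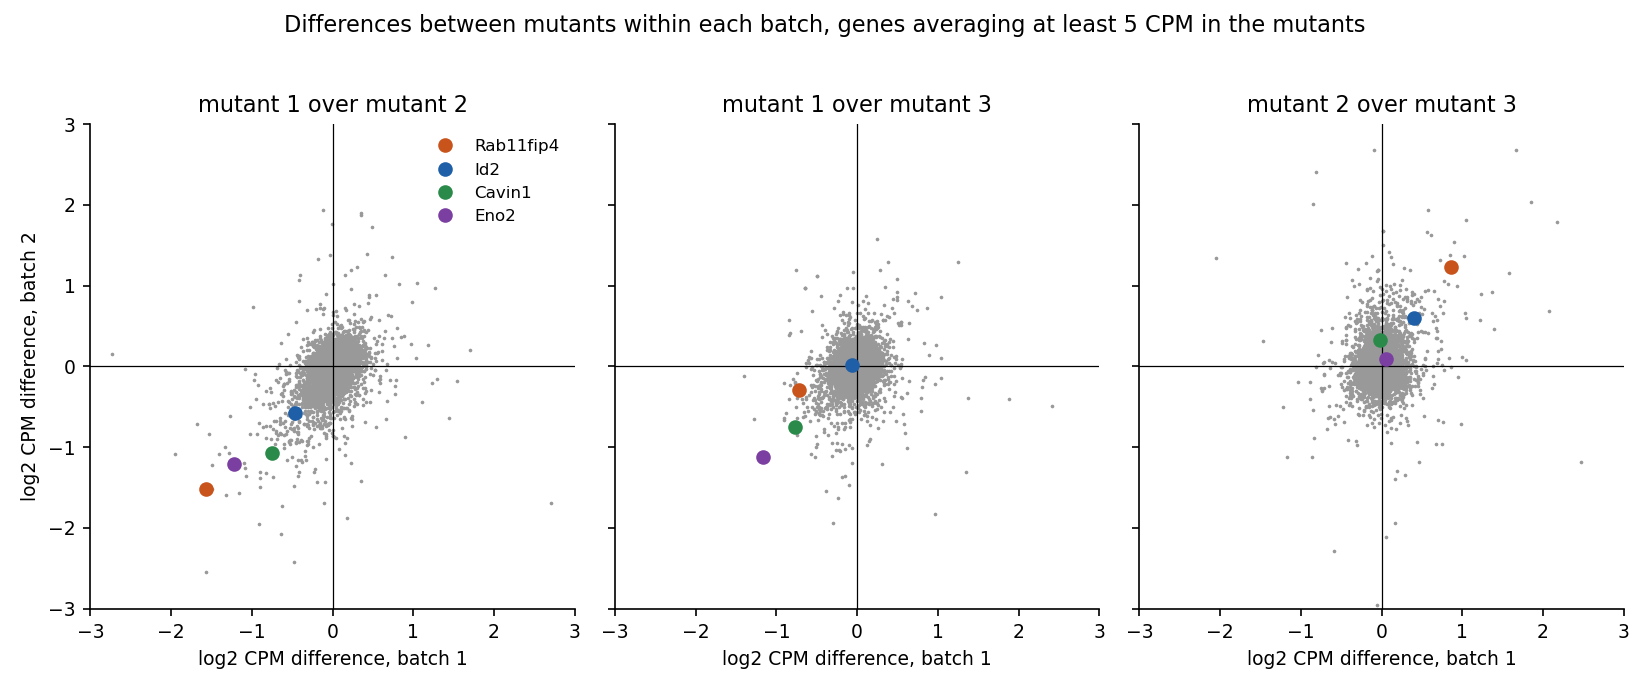
Log2 CPM difference between 2 mutants in batch 1 (horizontal axis) and in batch 2 (vertical axis) for the 10175 genes with at least 5 CPM, in 3 panels for the 3 pairs of mutants, with Rab11fip4, Id2, Cavin1 and Eno2 coloured and 5 genes with a difference beyond 3 not drawn. The cloud is tilted most for mutant 1 over mutant 2, where the correlation is 0.381, and Rab11fip4 lies at -1.58 and -1.52.

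Fitted on the 6 mutant libraries alone, with 17140 genes tested, the test for any difference called 57 genes, 0.333% (edgeR, adjusted p under 0.05). This fit has 2 residual degrees of freedom against 4 with all 10 libraries. Its common biological coefficient of variation was 0.0795, against 0.102 in the fit of all 10. It called 85 genes in mutant 1 over mutant 2 (0.496%), 18 higher and 67 lower, where DESeq2 on all 10 libraries called 99 (0.556%). It called 23 in mutant 2 over mutant 3 (0.134%), 20 higher and 3 lower, and 0 in mutant 1 over mutant 3 (0%), with 1106 genes at an unadjusted p under 0.05 and the 21 calls of DESeq2 on all libraries. Of the 57 genes, mutant 2 had the highest mean in 40, and in 39 it was highest in both batches. Mutant 1 had the lowest mean in 30 and was lowest in both batches in 25. The test that chose these genes used the same libraries and favours differences that are alike in both batches. The likeness of the batches in these counts is therefore no separate support. The same counts over all genes tested were not made. DESeq2 called 114 genes for any difference (0.64% of 17810), of which 39 were among the 57, a share of 68.4% of the 57 and 34.2% of the 114. The genes of this fit named in what follows were chosen after their values were seen, and none of them passed with edgeR on all 10 libraries.

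Among the genes highest in mutant 2, Pgr, the progesterone receptor, had 55.2 and 25.2 CPM in mutant 1, 97.9 and 46.8 CPM in mutant 2 and 55.2 and 23.0 CPM in mutant 3. It had 72.2 and 11.1 CPM with full-length ASXL2 and 96.7 and 39.8 CPM with the empty vector. In each batch mutant 2 lay above the empty vector library and mutants 1 and 3 below it (adjusted p = 0.00496, edgeR on the 6 libraries). The full-length libraries differed more between batches than any mutant. Rapgef3, a cyclic AMP-activated exchange factor for the GTPase RAP1, had 14.9 and 13.3 CPM in mutant 1, 31.6 and 31.9 CPM in mutant 2 and 20.6 and 20.2 CPM in mutant 3, with no overlap among the 3 and a log2 fold change of -1.18 (SE 0.08) for mutant 1 over mutant 2. Matk, a kinase that inhibits SRC family kinases, kept the same order in each batch at 13.4 and 9.93 CPM in mutant 1, 31.6 and 23.0 CPM in mutant 2 and 25.0 and 15.8 CPM in mutant 3. With full-length ASXL2 Rapgef3 had 28.3 and 17.3 CPM and Matk 40.9 and 18.3 CPM. With the empty vector Rapgef3 had 30.7 and 19.9 CPM and Matk 16.3 and 11.4 CPM. For Rapgef3 both controls fell from batch 1 to batch 2, while each mutant changed little.

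Adhesion molecules and secreted factors were also in this set. Itga4, the integrin alpha 4 chain that binds VCAM1, had 36.0 and 22.6 CPM in mutant 1, 68.1 and 36.8 CPM in mutant 2, and 33.3 and 23.1 CPM in mutant 3. Itgb2, the beta chain of the leukocyte integrins, had 23.1 and 20.3 CPM in mutant 1, 33.3 and 30.6 CPM in mutant 2 and 26.5 and 22.9 CPM in mutant 3, against 57.5 and 53.2 CPM with full-length ASXL2 and 20.1 and 15.1 CPM with the empty vector. Mutant 2 lay above both other mutants for each integrin chain, without overlap. In the fit of all 10 libraries both had an adjusted p of 0.249. Csf1, the macrophage growth factor, had 47.4 and 28.9 CPM in mutant 1, 70.0 and 50.3 CPM in mutant 2 and 53.4 and 33.6 CPM in mutant 3, and Adamtsl3, an extracellular matrix protein, had 29.7 and 47.7 CPM in mutant 1, 75.04 and 95.7 CPM in mutant 2 and 31.9 and 51.2 CPM in mutant 3. Ccn3, a secreted matricellular protein, had 2.88 and 4.18 CPM in mutant 1, 7.25 and 12.6 CPM in mutant 2 and 3.89 and 4.32 CPM in mutant 3. For Adamtsl3 and Ccn3 mutant 2 did not overlap with the other mutants, and for Csf1 the batches overlapped across mutants 2 and 3. Adamtsl3 rose from batch 1 to batch 2 in all 3 mutants. It fell with full-length ASXL2 (75.6 and 26.7 CPM) and with the empty vector (109.5 and 76.7 CPM). With full-length ASXL2 Csf1 had 69.0 and 28.3 CPM and Ccn3 5.10 and 3.29 CPM. With the empty vector Csf1 had 57.8 and 51.8 CPM and Ccn3 6.36 and 6.13 CPM.

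Genes highest in mutant 1 were fewer, 11 of the 57. Gpx3, a secreted glutathione peroxidase, had 16.4 and 38.2 CPM in mutant 1, 7.94 and 18.7 CPM in mutant 2 and 8.97 and 23.1 CPM in mutant 3, a log2 fold change of 1.04 (SE 0.08) for mutant 1 over mutant 2. Enc1, an actin-binding adaptor, had 202 and 213 CPM in mutant 1, 146 and 142 CPM in mutant 2 and 171 and 155 CPM in mutant 3, with no overlap among the mutants. Twist2, a basic helix-loop-helix repressor, had 1.65 and 1.87 CPM in mutant 1, 0.381 and 0.314 CPM in mutant 2 and 0.753 and 0.704 CPM in mutant 3. Mutant 1 was the highest mutant in both batches for all of these. Pf4 and Selp, both platelet genes, are also among the 11, but the 2 libraries of mutant 1 did not share their level. Selp had 1.81 CPM in mutant 1 of batch 1 and 0.0334 CPM in batch 2. Pf4 had 2.61 and 0.0167 CPM, and it also had 1.29 CPM in mutant 3 of batch 1.

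Genes highest in mutant 3 numbered 6. Actn1, an actin crosslinker of focal adhesions, had 14.7 and 11.5 CPM in mutant 1, 7.99 and 8.86 CPM in mutant 2 and 18.0 and 19.3 CPM in mutant 3, against 5.25 and 2.77 CPM with full-length ASXL2 and 2.92 and 1.42 CPM with the empty vector. The 3 mutants did not overlap, and all lay above the full-length and empty vector libraries. Mutant 2 over mutant 3 was -1.15 (SE 0.13, adjusted p = 0.0339, edgeR on the 6 libraries). Ctsl, a lysosomal protease, had 12.6 and 7.45 CPM in mutant 1, 15.7 and 7.41 CPM in mutant 2, and 23.6 and 11.7 CPM in mutant 3, against 8.07 and 4.1 CPM with full-length ASXL2 and 0.791 and 0.934 CPM with the empty vector. Mutant 3 was the highest in each batch, and the empty vector the lowest.

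A pair of predicted genes behaved as present or absent. Gm6206 had 0.634 and 0.798 CPM in the libraries of mutant 2 and 0 in the other 8 libraries. Gm6851 had 0.394 and 0.896 CPM in mutant 3, 0.113 CPM in 1 empty vector library and 0 in the other 7. Kallisto divides reads among similar transcripts, so estimates for copies of other genes are uncertain, and whether these follow the constructs was not tested.

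**Figure D4:**
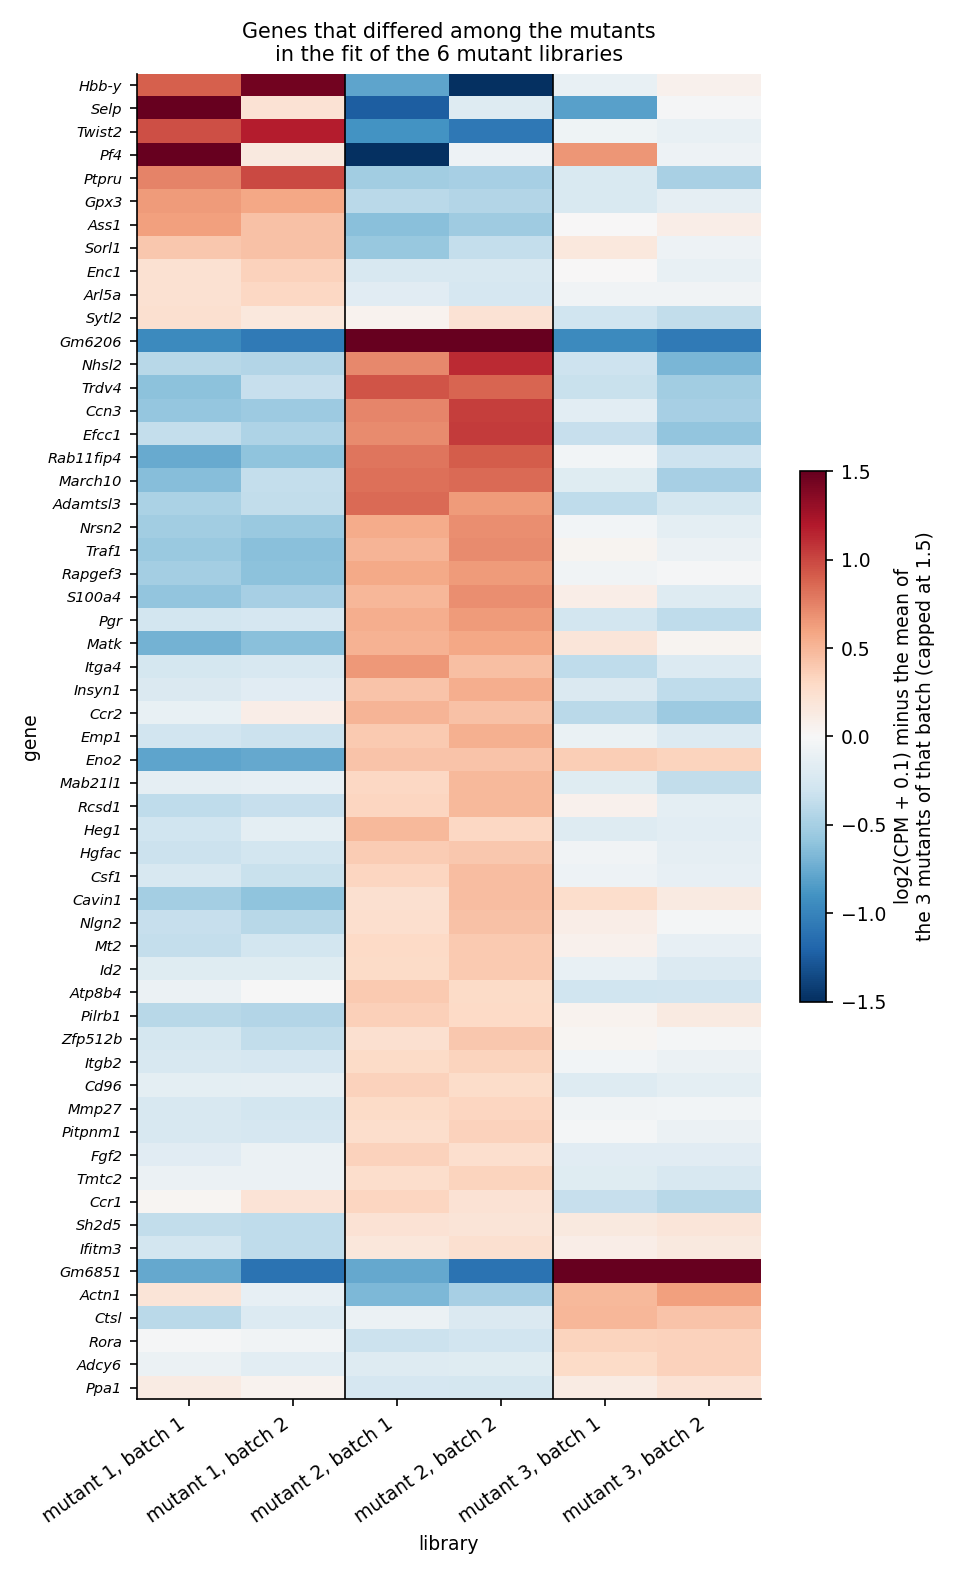
Heat map of the 57 genes called among the mutants in the fit of the 6 mutant libraries (rows), with 1 column per library and mutants 1, 2 and 3 from left to right, coloured by log2(CPM + 0.1) minus the mean of the 3 mutants of that batch and capped at 1.5. Mutant 2 has the highest mean in 40 of the 57, mutant 1 in 11 and mutant 3 in 6.

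Some genes stood high in 1 library only. Genes with at least 1 CPM and more than 8 times the level of every other library of the 10 numbered 8 in mutant 1 of batch 1, 6 in mutant 3 of batch 2, 2 in mutant 2 of batch 1, 1 in mutant 3 of batch 1 and 0 in the second library of mutants 1 and 2. In mutant 1 of batch 1 they include the eosinophil granule genes Prg2 (4.6 CPM) and Epx (4.14 CPM), and the platelet genes Ppbp (4.74 CPM) and Selp. In the other mutant libraries Prg2 reached at most 0.0262 CPM, Epx 0.0131 CPM and Ppbp 0.108 CPM. Of the 9 eosinophil markers, the summed TPM was 17.85 in that library and 2.52 to 4.878 in the other 5 mutant libraries. Not all markers were raised there. Prg3 (0.49 CPM) and Ear6 (0.312 CPM) were also highest there, but Ear1 and Ear2 were 0 in all libraries. Ccr3 (3.73 CPM), Il5ra (4.02 CPM) and Siglecf (0.193 CPM) lay below the highest mutant library, at 4.61, 5.63 and 0.349 CPM. Of the 12 megakaryocyte markers, the summed TPM was 2068 against 1213 to 1855, but this sum followed the batch. For mutants 1, 2 and 3 it was 2068, 1782 and 1855 TPM in batch 1 and 1314, 1213 and 1378 TPM in batch 2. Over the mutants Itga2b had 2274 to 2839 CPM and Gp1ba 317 to 413 CPM. Both were highest in mutant 1 of batch 1, whereas Gp1bb, Gp9, Vwf and Nfe2 were not.

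In mutant 3 of batch 2 the 6 genes include Hoxa9 and Hoxa7, homeobox regulators of blood progenitors. Hoxa9 had 9.23 CPM there, 1.09 CPM in 1 empty vector library and at most 0.0393 CPM in the other 5 mutant libraries. Hoxa7 had 5.21 CPM there and at most 0.0445 CPM in the other mutant libraries. Hoxa10 and Hoxa5 had 0.487 CPM each. The other library of mutant 3 had 0 CPM of Hoxa9 and 0.0179 CPM of Hoxa7, so these levels were not shared by the 2 libraries of the mutant. Slc27a3, a fatty acid transporter family member, had 25.1 CPM in that library and at most 2.64 CPM elsewhere. In batch 2 the granule protease gene Ctsg stood at 172, 307 and 191 CPM in mutants 1, 2 and 3, against 6.59, 13.5 and 3.19 CPM in batch 1, so that the batch and not the mutant separated the libraries. The 19 neutrophil markers, which include Ctsg, summed to 12.75 to 408 TPM over the mutants, and 3 of them averaged at least 1 TPM. Of the other granule genes in the list, Mpo reached at most 0.267 CPM, Elane 0.0891 CPM and Prtn3 2.55 CPM in any mutant library. The sum is therefore not read as neutrophil content. The part of these markers in the differences among mutants was not tested.

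**Figure D5:**
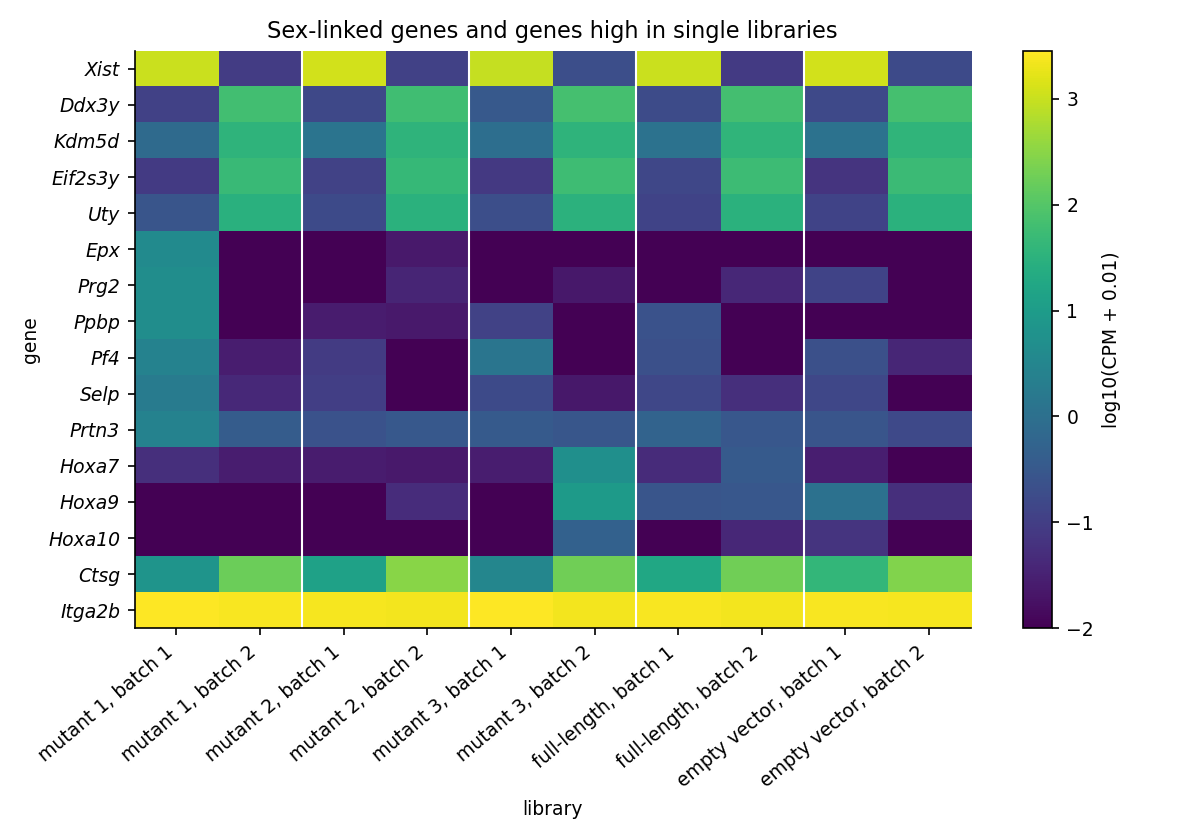
Heat map of sex-linked genes and of genes high in single libraries (rows) in each of the 10 libraries (columns, mutants 1, 2 and 3 then full-length and empty vector), coloured by log10(CPM + 0.01). Xist and the 4 Y-linked genes alternate with the batch in every group, while Epx and Ppbp stand out in mutant 1 of batch 1 and Hoxa9 and Hoxa7 in mutant 3 of batch 2.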

How the data were processed

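PolyA RNA of 10 libraries was analysed. The deposited tables hold an estimated count and a TPM value for each of 115088 transcripts, in the columns kallisto writes, per the file headers. The submitters' processing notes name kallisto, DESeq2 and mm10. Versions, index, trimming and strand setting were not given in the sources used here, so overlapping antisense genes and near-identical copies are uncertain. TPM are scaled by length and to a fixed total by the authors.

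Transcripts were summed per gene with GENCODE annotation of GRCm38 (114200 matched, 99.2%; 888 did not and were left out, leaving 99.3 to 99.6% of the counts), giving 47311 genes. The deposited estimated counts were rounded after summing. edgeR 4.0.16 (R 4.3.3, limma 3.58.1) was used with TMM scaling, its expression filter (10 counts, smallest class of 2; 17810 genes kept) and the robust quasi-likelihood test on all 10 libraries, with 5 groups by name and batch by name as block. The mutants were compared by an F test and 3 contrasts, adjusted by Benjamini-Hochberg. Intervals use the standard errors and degrees of freedom of that fit. log2 CPM for correlations used a prior count of 2. DESeq2 1.42.0 and limma on log2(TPM + 1), where the pseudocount understates the change of low genes, were alternatives, as were other filters, scalings, groupings, fits without a block and each library left out. Python 3.11.15 (matplotlib 3.10.9, numpy 2.4.6, pandas 2.3.3) made tables and figures. Promoter sequences and their coordinates are from RefSeq (GRCm38.p6), and 3 genes of interest were matched.

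The members, gene lists and tests were chosen with earlier results of these data known. Named genes were, per contrast, up to 6 called genes in each direction with at least 5 CPM in the higher mutant, filled to 3 by the smallest p, then the 6 smallest p among the mutants, up to 2 members per list and the Asxl genes with Bap1. Predicted genes were not named by this rule.

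The names pair libraries by batch: deviations of same-batch libraries from their group means correlated at 0.434 to 0.608 in all 10 pairs of groups. In 1 set of simulated counts, 200 genes were changed in mutant 1 only, and 17530 genes were tested. The test among the mutants recovered 85.7% of the 4-fold (54 of 63), 56.7% of the 2-fold (38 of 67) and 44.6% of the 1.5-fold differences (29 of 65), with 17 false calls. For mutant 1 over mutant 2 it recovered 87.3, 56.7 and 43.1%, with 12 false calls.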

Additional observations from a re-analysis of the deposited data

Results flagged for a closer look

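The summed level of the 9 eosinophil markers was 17.85 TPM in mutant 1 of batch 1. It stood apart because its gap to the nearest of the other 5 mutant libraries, which lay between 2.52 and 4.878 TPM, took up more of the range of the 6 libraries than is usual for 1 group of this size. Chance alone singles out about 1 in 20 groups in this way. The rule was applied to the sums of all 26 lists and flagged only this one, so 1 flag is not unusual. The markers Ccr3, Il5ra and Siglecf were not highest in mutant 1 of batch 1. The part of these genes' level in the differences among the mutants was not tested.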

How the results depend on the processing

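The number of calls differed among the settings. For any difference among the mutants there were 57 calls with only the 6 mutant libraries, 114 with DESeq2 and 25 with no filter. There were 0 with no replicate block, with DESeq2 size factors in edgeR, with the stricter filter (1 CPM in 4 libraries), with limma on log2(TPM + 1), with the test that is not robust and with the 3 groupings by label. For mutant 1 over mutant 2 the counts were 85 with the 6 libraries, 99 with DESeq2, 29 with no filter and 0 with no replicate block or by label. For mutant 1 over mutant 3 they were 0, 21 and 3 with the first 3 settings. For mutant 2 over mutant 3 they were 23, 47 and 8, and 1 with limma (Gm6206, which passed the filter only through mutant 2). In the settings with 0 calls for any difference, 158 (no block) to 1684 genes (by label) had an unadjusted p under 0.05. Leaving out each library in turn gave 0 to 10 calls for any difference, 0 to 14 for mutant 1 over mutant 2, 0 to 1 for mutant 1 over mutant 3 and 0 to 6 for mutant 2 over mutant 3. For any difference the counts were 10 without empty vector of batch 2, 5 without each other full-length or empty vector library and without mutant 2 of batch 1, and 0 without mutant 3 of batch 2. The Rab11fip4 fold change was -1.65 to -1.46 in these fits, -1.55 with no replicate block (adjusted p = 1, edgeR) and -1.17 with limma (adjusted p = 0.199). By label it was 0.37 with the replicate block by label, 0.459 with the replicate block by name and 0.406 without. The adjusted p of Asxl2 among the mutants was 0.67 to 1 with a library left out. The same-name correlation was 0.0483 for mutant 1 and 0.0353 for mutant 2 with no filter, 0.268 and 0.181 with the stricter filter, and 0.386, 0.286 and 0.0197 for mutants 1, 2 and 3 at 5 CPM or more, a choice made after seeing the data. By label the medians of mutant 1 over mutant 2 for replication, mitosis and ribosome biogenesis genes were -0.293, -0.366 and -0.246 with the replicate block by label, -0.189, -0.162 and -0.058 with the block by name and -0.306, -0.394 and -0.272 without. The cause of these changes was not tested.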
